A study of Homo sapiens with 12 samples.

Results

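HK-2 cells that had been exposed to Aa, a compound given at a low dose under that name in the labels, were compared after 48 h with control cells of the same age. HK-2 is an immortalised cell line from the proximal tubule of the human kidney, the stretch of the nephron that takes back most of the filtered solutes. The comparison used 6 of the 12 arrays of the series, 3 with Aa and 3 controls, all from 48 h, and the other 6 hold the same groups at 24 h. All cells were grown in the same serum-free, growth factor-supplemented medium and treated near confluence, and the controls received the vehicle. The labels give the dose as low without a number and do not spell out Aa, and they name the arrays of a group biological replicates with nothing on their cultures, so the p-values measure the spread between these arrays.

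Each array measured messenger RNA with short oligonucleotide probes, and the deposited values are log2 intensities, on which a difference of 1 is a doubling. A gene was represented by its brightest probe set, and genes whose log2 values averaged 4 or more across the 12 arrays were tested, 10791 of the 19775 genes with a probe set. A change is the log2 difference, Aa minus control, with its standard error (SE), and n = 3 arrays per group throughout. Rose and fell are used for genes with an adjusted p under 0.05 in limma, corrected over all 10791 genes. Values of array replicates 1, 2 and 3 are given in that order.

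Cells that divide pass through a chain of gene programmes that can be read in their messenger RNA. E2F factors switch on the genes that license and copy DNA, and later a second set of genes for chromosome condensation, spindle and cell separation is switched on, which p53, p21 and the DREAM repressor complex hold down in cells that stop dividing. DNA lesions engage p53 and the checkpoint kinases, and lesions in the template also halt RNA polymerase, which has further to travel in a long gene. Tubule cells answer injury with early response genes such as ATF3 and ligands of the EGF receptor.

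The arrays of a group resembled each other, with Pearson's r across probe sets past the filter of 0.979 to 0.987 among the Aa arrays, 0.983 to 0.988 among the controls and 0.927 to 0.961 between them. Epithelial markers were present, with 10 of 14 at a mean of at least 4, among them KRT8, KRT18, EPCAM and CDH1. Of 27 proximal tubule markers 9 reached that level, while the defining transporters LRP2, CUBN, SLC34A1, SLC22A6 and AQP1 lay below it, so many functions of the native tubule are not represented in these cells. None of 12 leukocyte markers and 2 of 12 endothelial markers reached it. Of 14 markers of the distal nephron and collecting duct 1 did. Of 14 fibroblast and mesenchyme markers 5 did (COL1A1, DCN, LUM, TWIST1 and ACTA2), and of 6 podocyte markers 3 did (PODXL, SYNPO and PTPRO). The control probe sets named for 28S ribosomal RNA averaged 7.30, 7.57 and 7.80 with Aa and 6.60, 6.73 and 6.91 in controls. The actin control probe sets read more at the 3′ than at the 5′ end by 0.78, 1.15 and 0.77 with Aa and by 0.72, 0.99 and 0.63 in controls. Both were thus higher with Aa in 3 of 3 pairs of arrays with the same number. The GAPDH control probe sets differed little between their ends. Their 3′ minus 5′ values were -0.006, -0.105 and -0.055 with Aa and -0.042, -0.084 and -0.063 in controls, higher with Aa in 2 of 3 pairs. The part of these measures in the results was not tested.

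Aa changed 4083 genes at 48 h, 37.8% of those tested, of which 1919 rose (17.8%) and 2164 fell (20.1%). The median change over all genes tested was -0.001, a value that the normalisation, which equalises the distributions of the arrays, holds near 0. Among the genes that rose the median was 0.70 and among those that fell it was -0.76. Changes of at least 2-fold numbered 493 up and 725 down, and of at least 8-fold 25 up and 45 down. The 3 Aa arrays lay wholly to one side of the 3 controls in 48.4% of all genes tested. With the replicate number as a block 5917 genes passed (54.8%), of which 2885 genes rose (26.7%) and 3032 fell (28.1%). Pair 2 moved least, with a median size of 0.64 over the called genes against 0.80 in pair 1 and 0.75 in pair 3. Without replicate 1 in all groups 765 genes rose and 784 fell, and without replicate 3 the counts were 998 and 1324. Of the 319 genes named in the text that passed, 130 no longer did without replicate 1, 37 without replicate 2 and 75 without replicate 3, while 0 were lost with the block.

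**Figure D1:**
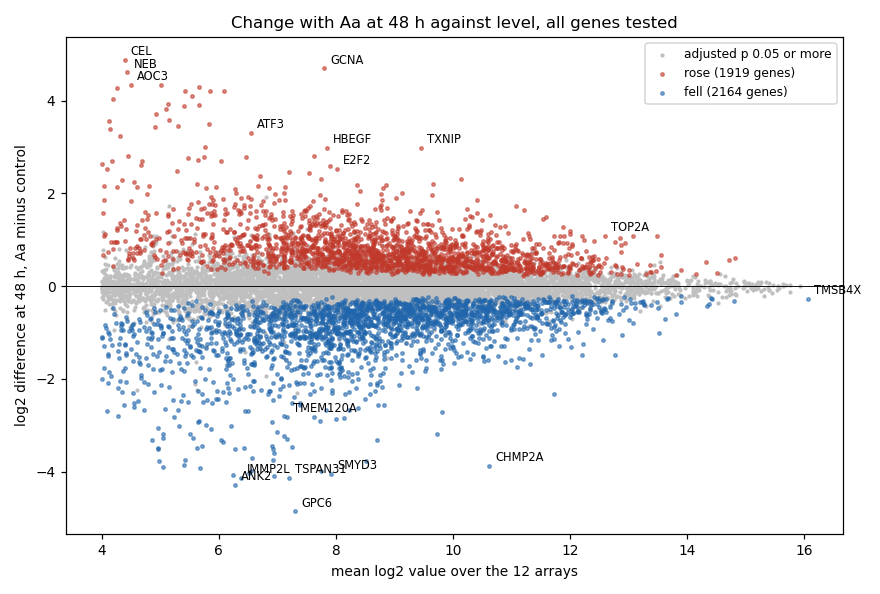
Each point is a gene, with its mean log2 value over the 12 arrays on the horizontal axis and its log2 difference at 48 h, Aa minus control, on the vertical axis, coloured by whether it rose (1919), fell (2164) or did not pass. Changes of more than 3 lie at means under 9 apart from the falls of CHMP2A and MICOS13, and the most abundant transcripts at the right edge stay near 0.

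The largest rises among genes with both group means of at least 5 were led by GCNA, a germ cell nuclear protein gene, and ATF3, a transcription factor gene induced by many kinds of stress. GCNA read 10.35, 9.97 and 10.20 on the Aa arrays and 5.66, 5.91 and 4.86 on the controls, or 26.0-fold more with Aa (4.70, SE 0.30, adjusted p = 7.67e-06). Its groups lay far apart and the Aa arrays were close together. ATF3 read 8.56, 9.89 and 8.44 with Aa and 5.97, 5.27 and 5.73 in controls, where the second Aa array was the highest, and rose by 3.31 (SE 0.47), adjusted p = 0.000495. TXNIP, which encodes an inhibitor of thioredoxin that responds to glucose, read 10.38, 10.08 and 10.04 with Aa and 6.32, 6.33 and 8.92 in controls. The third control lay well above the other controls, and the groups still did not overlap (2.98, SE 0.54, adjusted p = 0.00194). The mean of TXNIP was 9.8 at 24 h and 7.2 at 48 h in controls, and 10.6 and 10.2 with Aa. The controls themselves were thus lower at 48 h, and the call was lost without replicate 1. HBEGF, a membrane-anchored ligand of the EGF receptor, read 9.10, 9.87 and 9.10 with Aa and 5.67, 6.43 and 7.05 in controls, with the 6 arrays separated (2.98, SE 0.43, adjusted p = 0.000527). The actin-binding kelch protein gene ENC1 read 9.78, 9.02 and 9.33 with Aa and 6.66, 6.10 and 6.95 in controls (2.81, SE 0.23, adjusted p = 2.63e-05).

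The other large rises included cell cycle and secreted factors. E2F2, a factor that drives S phase genes, read 8.98, 9.00 and 8.80 with Aa and 6.07, 6.51 and 6.62 in controls, tight in both groups (2.53, SE 0.17, adjusted p = 7.73e-06). SERTAD1, whose product binds CDK4 and acts with E2F factors, went from 6.29 ± 0.37 (SD) in controls to 8.75 ± 0.10 with Aa, a 5.48-fold rise. ADM, the gene of the vasodilator peptide adrenomedullin, was highest in the second Aa array, with 7.82, 9.01 and 7.87 against 5.52, 5.62 and 6.47 in controls (2.37, SE 0.40). TSPYL2, a relative of nucleosome assembly proteins, rose by 2.30 (SE 0.15) and the microRNA host gene MIR570HG by 2.59 (SE 0.29). ZNF862 and the proton pump subunit gene ATP6V0A2 rose by 2.78 and 2.43 on their brightest probe sets, but their probe sets did not all move in the same direction.

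Without a minimum on the group means, CEL rose more than GCNA, and NEB and AOC3 more than the other 11 of those 12 genes, from control means that lay below 4. CEL, the gene of a bile salt-dependent lipase, read 7.66, 6.09 and 7.62 with Aa and 2.28, 2.23 and 2.23 in controls. NEB, which encodes the muscle protein nebulin, read 7.56, 6.50 and 6.60 and 2.29, 2.29 and 2.27, and AOC3, an amine oxidase gene, 6.41, 7.37 and 7.16 and 2.60, 2.48 and 2.83. The controls of these genes lay near the bottom of the scale, so their changes of 4.88, 4.61 and 4.35 are uncertain in size.

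The largest falls brought well-measured genes down by 8.88- to 17.6-fold, and in most of them the second Aa array stood above the other Aa arrays. TSPAN31, a tetraspanin gene, read 4.76, 6.24 and 4.21 with Aa and 9.00, 9.41 and 9.20 in controls (-4.13, SE 0.41, adjusted p = 7.80e-05). SMYD3, a lysine methyltransferase gene, read 4.72, 7.62 and 4.70 with Aa and 9.69, 9.88 and 9.61 in controls. Here the second Aa array lay about midway between the other Aa arrays and the controls (-4.05, SE 0.71, adjusted p = 0.00153). CHMP2A, a subunit of the ESCRT-III machinery that severs membrane necks, was among the brighter genes and read 7.07, 9.47 and 7.66 with Aa and 11.72, 12.05 and 12.04 in controls (-3.87, SE 0.47, adjusted p = 0.000216). KRT20, a keratin gene, read 4.95, 7.55 and 5.13 with Aa and 9.24, 9.51 and 9.42 in controls, again with no overlap (-3.51, SE 0.62). SCEL, which encodes the cornified envelope precursor sciellin, was at -3.78 (SE 0.77), the orphan receptor gene GPR160 at -3.98 (SE 0.71) and the kinase gene PRKCB at -3.44 (SE 0.82).

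NDUFAF3, which encodes an assembly factor of respiratory complex I, read 6.18, 7.39 and 6.36 with Aa and 9.73, 10.01 and 10.15 in controls (-3.32, SE 0.31, adjusted p = 5.18e-05). MICOS13, a subunit of the complex that shapes the cristae, read 6.73, 8.35 and 7.79 and 10.72, 10.79 and 10.93 (-3.19, SE 0.33). GYS1, the glycogen synthase of muscle and other tissues, was lowest in the first Aa array, with 3.75, 5.76 and 5.85 against 8.24, 7.95 and 8.63 (-3.15, SE 0.46). The lipid-related membrane protein gene TLCD1 fell by 3.48 (SE 0.37) and the transporter gene SLC44A5 by 3.30 (SE 0.71).

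**Figure D2:**
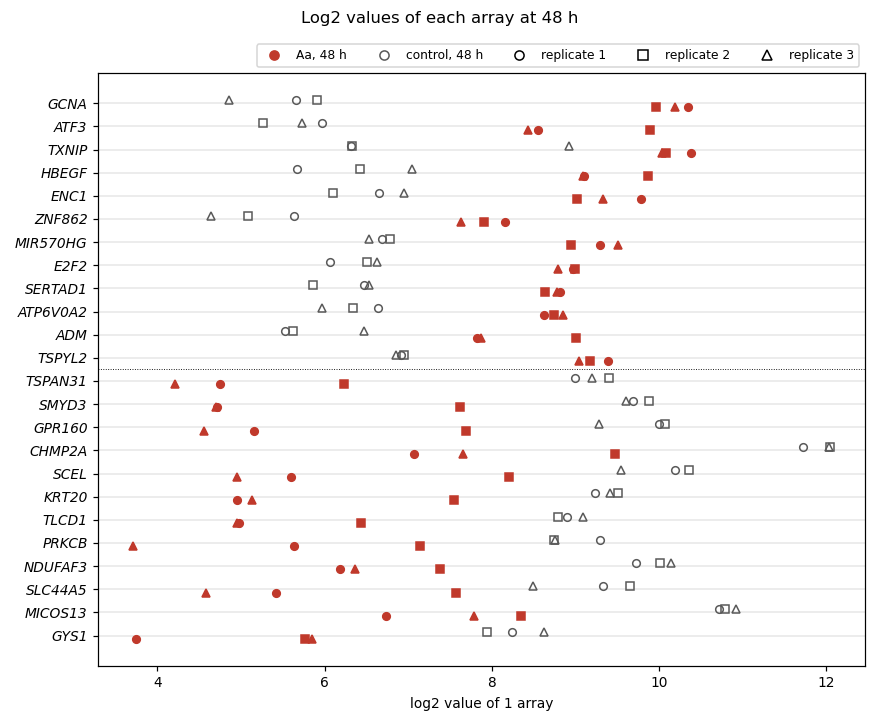
Log2 values of each of the 6 arrays at 48 h for the 12 largest rises (above the dotted line) and the 12 largest falls with both group means of at least 5, filled for Aa and open for control, with the symbol marking the replicate number. No gene has overlapping groups, the groups of SLC44A5 and, among the rises, of TXNIP lie closest to each other, and in most falls the Aa array of replicate 2 lies highest.

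The falls with the smallest p-values had Aa arrays close to each other. TMEM120A, a membrane protein gene, read 5.32, 5.63 and 5.26 with Aa and 8.25, 8.16 and 8.27 in controls and fell by 2.82 (SE 0.12), adjusted p = 1.46e-06. ETFRF1, a regulator of the electron transfer flavoprotein, read 7.41, 7.45 and 7.25 and 9.46, 9.79 and 9.47 (-2.21, SE 0.11), and the methyltransferase gene METTL23 went from 11.05 ± 0.05 (SD) to 8.33 ± 0.33 (-2.72, SE 0.15). The Aa arrays of these 3 genes lay closer to each other than those of the 12 falls shown in the plot of single arrays. SLC60A1 (-2.56, SE 0.13) and SKAP1 (-2.60, SE 0.14) also fell, to Aa means of 3.35 and 3.28, below 4. Among the rises the smallest p-values included those of GCNA, the first of the 12 above, and ATP6V0A2. SKA3, which encodes a protein that couples chromosomes to spindle microtubules, read 8.84, 8.69 and 8.94 with Aa and 7.26, 7.24 and 7.39 in controls (1.53, SE 0.10, adjusted p = 7.73e-06). The non-coding RNA gene LINC01963 rose by 4.11 (SE 0.25) from a control mean of 3.49.

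The most abundant transcripts read near the top of the scale, whose highest value on any array was 16.25, and bright probe sets there may understate a change. Of the 10 genes with the highest control means, TMSB4X, which encodes an actin-sequestering peptide, fell by 0.28 (SE 0.08), adjusted p = 0.0207. EEF1A1, GAPDH, RPL41, RPL37A, RPS24, RPS23 and the mitochondrially encoded COX1, COX2 and ATP6 did not pass, with changes from -0.12 to 0.05. Of 50 ribosomal protein genes 0 rose and 1 fell, RPS15A by 0.32 (SE 0.10), with 5 down under the replicate block, and the median was 0.000. That is 2.0% called against 37.8% of all genes tested, but 48 of the 50 had a control mean of at least 14, and of all 123 genes that bright 11 passed. Averaged over all their probe sets past the filter, EEF1A1, RPS23 and RPS15A instead read 0.43, 1.37 and 1.49 higher with Aa, so dimmer probe sets of these genes disagreed with the brightest.

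The choice of probe set decided part of the calls. Of the 319 named genes that passed, 17 no longer did when the log2 values of all their probe sets past the filter were averaged, and CFLAR and RPS15A took the other sign. Among the rises ATP6V0A2 went to 0.28, DUSP3 to 0.19, CD44 to 0.32, DUSP1 to 0.39, CYP1B1 to 0.38, KNL1 to 0.48, DNAJB1 to 0.55 and CCND1 to 1.06, and FAS, KAZN and MTHFD2 read 0.35, 0.28 and 0.33. Among the falls IFT22 went to -0.11, ZFHX3 to -0.18, NPAT to -0.21, CREBBP to -0.23, SREBF1 to -0.26 and HK2 to -0.38. A further 21 kept their call with a change smaller by over 1.5 times, such as CEP78, at 2.13 on its brightest probe set and 0.66 on average, ZNF862 (2.78 and 1.28), ELOVL6 (-1.61 and -0.76) and RAD18 (1.96 and 0.83), and 6 were larger by as much, among them WWOX (-1.37 and -2.97) and SCD (-0.44 and -1.15). Leaving out the probe sets whose names mark that they may read several genes ended 10 calls, those of ATG7, AURKA, CDH6, CFLAR, FANCF, KIF23, MCM5, METTL5, NIPBL and PCNA. Of these KIF23 went to 0.51, CFLAR to -0.27, and MCM5, NIPBL and PCNA stayed at -0.44, -0.38 and 0.23 with an adjusted p of 0.0587, 0.106 and 0.053 in limma. MCM10 was smaller there, at 0.83 against 1.74, NRG1 too, at -1.17 against -2.06, and BIRC5, MAD2L1 and SMAD2 were larger, at 2.56, 2.02 and -0.82.

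The genes of mitosis rose as a group. Over 5 lists with 102 genes tested, covering entry into mitosis, kinesins, kinetochores, the spindle checkpoint and cytokinesis, 62 rose and 1 fell, with a median change of 0.54 against -0.001 over all genes. The median was 0.67, 0.56 and 0.44 in the 3 pairs. Between 24 h and 48 h the median of these genes changed by -0.47 in the controls and by 0.29 in the Aa arrays, so the difference at 48 h holds both movements. The medians over all genes tested were -0.006 and 0.007 for the same interval.

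Many of these genes share a short promoter arrangement, which the following 86-base windows show in whole or in part for 5 members that rose. The element TTTGAA, called CHR, is read by the DREAM and MuvB complexes and often lies downstream of CCAAT boxes bound by NF-Y. The 5 were picked from members that hold CHR letters close to the start, and each window was placed around that match. Its presence in all 5 was thus fixed by the choice. Each window lies upstream of the annotated start in GRCh38.p14, as given by RefSeq, and is written 5′ to 3′ on the strand of the gene. Capitals mark CHR (TTTGAA, or TTCAAA where it reads on the other strand) and CCAAT (or ATTGG on the other strand).
ZWINT: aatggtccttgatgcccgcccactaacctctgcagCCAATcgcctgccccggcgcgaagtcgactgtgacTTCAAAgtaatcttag
KIF11: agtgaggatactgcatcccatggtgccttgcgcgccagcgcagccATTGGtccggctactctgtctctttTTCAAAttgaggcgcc
ESPL1: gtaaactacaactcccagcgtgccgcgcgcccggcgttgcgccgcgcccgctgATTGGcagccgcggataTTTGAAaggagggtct
PRC1: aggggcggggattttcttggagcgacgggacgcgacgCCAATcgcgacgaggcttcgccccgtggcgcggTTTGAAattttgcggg
BUB1B: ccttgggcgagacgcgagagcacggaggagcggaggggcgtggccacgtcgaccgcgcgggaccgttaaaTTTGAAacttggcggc

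The windows lie at chr10:56361275-56361360 on the minus strand (ZWINT), chr10:92593032-92593117 on the plus strand (KIF11), chr12:53268198-53268283 on the plus strand (ESPL1), chr15:90994540-90994625 on the minus strand (PRC1) and chr15:40160976-40161061 on the plus strand (BUB1B). The CHR letters begin 20 to 31 bases before the start. BUB1B has no CCAAT in its window and the other 4 have 1 each. Searched over 250 bases before the start and on both strands, TTTGAA or TTTAAA was in 39 of 87 members of the mitotic lists with a promoter sequence (44.8%), against 13.7% of the 8926 tested genes with one. CCAAT was in 66.7% of them and in 35.8% of all. The E2F letters TTTCCCGC, TTTGGCGC, TTTCGCGC and TTTGCCGC were in 11.5% against 4.73%. In the replication lists described below the order was the other way round, with CHR letters in 2 of 50 promoters and E2F letters in 14 of 50. Matches of different motifs may share bases at their ends, each motif was counted on its own, and a match is a run of letters, not a measured site.

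Regulators of entry into mitosis were high with Aa in most cases: 14 of 21 rose and 0 fell, with a median of 0.78. CDK1, the kinase that starts mitosis, read 13.51, 13.29 and 13.47 with Aa and 12.28, 12.39 and 12.48 in controls (1.04, SE 0.11, adjusted p = 0.000109). All 3 Aa arrays lay above all 3 controls. The transcription factor gene FOXM1, which drives the late cell cycle genes, read 10.81, 10.05 and 10.53 with Aa and 8.96, 8.52 and 9.11 in controls and rose by 1.60 (SE 0.24). The phosphatase gene CDC25A, which removes the brake on CDKs, rose by 1.67 (SE 0.17), PKMYT1, a kinase that applies this brake, by 1.36 (SE 0.28), MASTL by 1.30 (SE 0.21) and MYBL2, a partner of MuvB, by 1.28 (SE 0.27). The polo-like kinase gene PLK1 rose by 0.88 (SE 0.29) and the cyclin gene CCNA2 by 0.78 (SE 0.15). The B-type cyclins, which give CDK1 its mitotic activity, were nearer to controls, with CCNB1 at 0.31 (SE 0.13) and CCNB2 at 0.21 (SE 0.14), neither past the threshold. For CCNB1 this depended on the processing. It passed as a rise in 4 of 24 alternative fits, and its change ran from 0.24 to 0.74 over them.

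Kinesins are the motors of the spindle. Of 13 mitotic kinesins 10 rose and 0 fell, median 0.73. KIF2C, which takes microtubules apart at kinetochores, read 11.75, 11.91 and 11.87 with Aa and 10.68, 10.71 and 10.91 in controls (1.08, SE 0.12). KIF11, which pushes the spindle poles apart, read 11.41, 11.33 and 11.50 and 10.54, 10.52 and 10.61 (0.85, SE 0.11), and its promoter is shown above. The groups were separate in both. KIF18B (0.90, SE 0.12), KIF15 (0.87, SE 0.14), KIFC1 (0.83, SE 0.19) and the cytokinesis motor gene KIF23 (0.83, SE 0.14) rose by similar amounts. CENPE and KIF20A, at 0.30 and 0.23, did not pass.

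At the kinetochore, the protein assembly on which chromosomes are pulled, 15 of 28 genes rose and 0 fell (median 0.50). SKA3 was named above. CENPO, of the inner kinetochore, read 8.96, 8.73 and 9.33 with Aa and 7.63, 7.10 and 7.94 in controls and rose by 1.45 (SE 0.23). HJURP, the chaperone that loads the centromeric histone, rose by 1.30 (SE 0.15) and the histone gene itself, CENPA, by 0.63 (SE 0.15). The outer kinetochore genes KNL1 (0.78, SE 0.10), NUF2 (0.62, SE 0.12), NDC80 (0.58, SE 0.11) and ZWINT (0.89, SE 0.10) rose too. CENPH, at -0.43 (SE 0.19), was the lowest member and did not pass.

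Checkpoint and anaphase genes had 8 of 19 up and 1 down and a median of 0.32. ESPL1, the gene of separase, which cuts cohesin, read 10.39, 10.10 and 10.50 with Aa and 9.11, 8.61 and 9.33 in controls, a clear separation (1.32, SE 0.18). MAD2L1 (0.96, SE 0.19) and BUB1B (0.73, SE 0.10), both of the checkpoint that waits for attached chromosomes, rose. MAD1L1, a partner of MAD2L1 in the same checkpoint, fell by 0.59 (SE 0.14). CDC20, which activates the anaphase-promoting complex, read 0.50 (SE 0.19) and did not pass, but did with the replicate block. It passed in 6 of 23 alternative fits.

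In the list of Aurora kinases, spindle assembly and cytokinesis 16 of 22 genes rose and 0 fell (median 0.59). NEK2, a centrosome kinase gene, rose by 1.43 (SE 0.17). AURKB, the kinase of the chromosomal passenger complex, read 10.59, 10.41 and 10.93 with Aa and 9.41, 9.02 and 9.79 in controls (1.23, SE 0.21), and its partner BIRC5 (survivin) rose by 1.01 (SE 0.18). AURKA, at the spindle poles, rose by 0.49 (SE 0.15) and its activator TPX2 by 0.61 (SE 0.13). On the probe sets of AURKA that are not shared the difference was 0.005, adjusted p = 0.967. SPAG5 (1.13, SE 0.10), TACC3 (1.08, SE 0.23), HMMR (0.82, SE 0.15) and PRC1 (0.72, SE 0.10), which bundles the central spindle, were higher in all 3 Aa arrays than in any control.

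Genes that fold and hold chromosomes changed in both directions: 11 of 26 rose and 3 fell (median 0.32). Topoisomerase TOP2A, which untangles DNA before it is separated, read 13.22, 13.24 and 13.21 with Aa and 12.11, 12.15 and 12.14 in controls (1.09, SE 0.09). CDCA5, which encodes the cohesin stabiliser sororin, rose by 1.97 (SE 0.22), the centromere protector gene SGO1 by 1.89 (SE 0.24) and the condensin genes NCAPH and NCAPD2 by 1.09 (SE 0.16) and 0.82 (SE 0.15). The falls were cohesin genes and its loader, with STAG1 at -1.34 (SE 0.26), PDS5B at -0.47 (SE 0.17) and NIPBL at -0.34 (SE 0.11). Clustered histones, made in S phase, were few in the table, and 5 of 9 genes of their list rose and 1 fell. H1-2, a linker histone gene, read 7.27, 7.70 and 7.33 with Aa and 5.45, 5.93 and 6.04 in controls (1.62, SE 0.19), and the core histone genes H2BC9 and H2BC5 rose by 1.45 and 1.28. NPAT, the activator of histone gene transcription, fell by 0.38 (SE 0.10). Histone genes are close copies of each other, and their probe sets may read several.

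Replication genes rose in part. In origin licensing and the replicative helicase 13 of 26 genes rose and 6 fell, median 0.36. MCM10, which helps to activate the helicase, read 9.08, 9.28 and 9.44 with Aa and 7.27, 7.24 and 8.06 in controls (1.74, SE 0.22). ORC6 (1.25, SE 0.15), CDC6 (1.17, SE 0.21), CDC45 (1.16, SE 0.21), TICRR (1.24, SE 0.16) and RECQL4 (1.27, SE 0.41) rose with it. MCM6, a core subunit of the same helicase, instead read 11.24, 11.52 and 11.02 with Aa and 12.06, 12.05 and 12.13 in controls and fell (-0.82, SE 0.13), and so did ORC3 (-0.90, SE 0.21), GINS2 (-0.77, SE 0.14) and MCM5 (-0.43, SE 0.11). MCM2, MCM3, MCM4 and MCM7 lay between 0.04 and 0.21 and did not pass, MCM7 except with the replicate block. So the members of a single complex differed in direction. Between 24 h and 48 h the list's median changed by -0.37 in controls and -0.33 in the Aa arrays.

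At the fork itself 14 of 32 genes rose and 0 fell (18 and 3 with the replicate block), median 0.28. DNA2, a nuclease gene of lagging strand synthesis, rose by 1.35 (SE 0.14), the histone chaperone gene ASF1B by 1.20 (SE 0.16) and CLSPN, the gene of the checkpoint mediator claspin, by 1.06 (SE 0.22). The leading strand polymerase gene POLE read 9.55, 9.21 and 9.47 with Aa and 8.88, 8.14 and 8.83 in controls (0.79, SE 0.21). PCNA, the sliding clamp, rose only slightly (0.23, SE 0.08). Among 13 genes of deoxynucleotide supply 4 rose and 1 fell. SAMHD1, which breaks deoxynucleotides down, changed most (1.20, SE 0.13), while the reductase gene RRM2 rose by 0.34 (SE 0.10) and TYMS, the source of thymidylate, was at 0.21 (SE 0.11) and did not pass.

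Upstream of replication 9 of 21 cyclins, E2F factors and pocket proteins rose and 1 fell (11 and 3 with the replicate block), median 0.33. E2F2 was described above. E2F1, an activator of S phase genes, rose by 1.15 (SE 0.24), and the repressors E2F7 and E2F8, which E2F1 itself induces, rose by 0.99 (SE 0.11) and 1.34 (SE 0.12). Cyclin D1, CCND1, which couples growth signals to CDK4, read 8.94, 8.55 and 9.28 with Aa and 7.41, 7.39 and 8.04 in controls (1.31, SE 0.41). CCNE1 and CCNE2 rose by 0.65 (SE 0.11) and 0.52 (SE 0.16). The retinoblastoma gene RB1 was at -0.18 (SE 0.13) and CDK4 at -0.13 (SE 0.09), and neither passed. E2F5 fell by 0.57 (SE 0.13).

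Of 7 inhibitors of cyclin-dependent kinases 3 rose and 1 fell, or 57.1% called against 37.8% of all genes. CDKN2B, the gene of p15 and a target of TGF-beta signalling, read 7.19, 7.65 and 6.99 with Aa and 3.85, 3.68 and 3.56 in controls, a difference of 3.58, SE 0.26, adjusted p = 1.40e-05, over controls that lay below 4. CDKN1A, the gene of p21, read 11.42, 10.81 and 11.14 with Aa and 9.49, 8.97 and 9.92 in controls (1.66, SE 0.22, adjusted p = 0.000358). The groups of both were wide apart. CDKN2D, the gene of p19, rose by 1.22 (SE 0.19), and CDKN1B, the gene of p27, fell by 0.50 (SE 0.17). CDKN2A was at 0.10 (SE 0.13) and did not pass.

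The p53 list was split. Of 26 genes 9 rose and 3 fell (11 and 5 with the replicate block), or 46.2% called against 37.8% of all genes, with a median of 0.23. Apart from CDKN1A, PMAIP1, the gene of the death promoter NOXA, read 11.20, 11.55 and 11.26 with Aa and 9.49, 9.70 and 10.11 in controls (1.57, SE 0.27). GADD45A rose by 1.03 (SE 0.15), the death receptor gene TNFRSF10A by 0.78 (SE 0.12) and the secreted factor gene GDF15 by 0.77 (SE 0.16). MDM2, the ligase that p53 induces to limit itself, read 8.94, 8.59 and 8.70 with Aa and 8.78, 8.81 and 8.67 in controls and did not pass (-0.01, SE 0.12). FAS, XPC and DDB2 rose by 0.32, 0.33 and 0.30. PLK2 (-0.98, SE 0.15), TP53I3 (-0.88, SE 0.15) and ZMAT3 (-0.71, SE 0.18) fell.

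Checkpoint genes moved in both directions, 5 up and 4 down of 20. That is 45.0% called, near the 37.8% of all genes, of which 17.8% rose and 20.1% fell. H2AX, whose product marks broken DNA once it is phosphorylated, read 12.12, 11.21 and 11.94 with Aa and 10.37, 9.50 and 10.23 in controls (1.72, SE 0.31), and BRCA1 rose by 0.90 (SE 0.18). RAD9A rose by 0.96 (SE 0.33), while its partner in the same clamp, HUS1, fell by 1.06 (SE 0.21). CHEK1, the kinase that answers stalled forks, fell by 0.46 (SE 0.15), and ATM and ATR, at 0.00 and 0.11, did not pass.

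Repair genes were grouped by pathway. In the Fanconi and homologous recombination list 13 of 27 rose and 3 fell (median 0.17), with EXO1, an end-resecting nuclease gene, at 1.43 (SE 0.19), RAD51AP1 at 1.17 (SE 0.17) and the helicase gene BLM at 1.03 (SE 0.15). MUS81, which cuts joined DNA molecules, fell by 1.08 (SE 0.16) and FANCF by 1.02 (SE 0.12), although FANCF was at -0.23 without shared probe sets and did not pass (adjusted p = 0.311). Mismatch and base excision repair had 6 of 20 up and 10 down, and a median of -0.24. Pair medians were -0.49, -0.03 and -0.18, and without shared probe sets the median of the list was -0.11. OGG1, the glycosylase of oxidised guanine, read 6.06, 6.08 and 5.70 with Aa and 7.69, 7.39 and 7.39 in controls (-1.54, SE 0.19). MPG, the glycosylase of alkylated purines, fell by 1.22 (SE 0.15), SMUG1 by 0.74 (SE 0.18) and the abasic site nuclease gene APEX1 by 0.63 (SE 0.09). NEIL3, a glycosylase gene that is expressed in cycling cells, rose by 1.47 (SE 0.20).

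Nucleotide excision repair, which removes bulky adducts, had 6 of 22 genes up and 3 down (8 and 6 with the replicate block). That is 40.9% called, near the 37.8% of all genes. Its paired nuclease subunits changed in opposite directions. ERCC4 read 7.72, 7.58 and 7.40 with Aa and 6.24, 5.87 and 5.85 in controls and rose by 1.58 (SE 0.25), while its partner ERCC1 read 8.05, 7.95 and 8.06 and 9.41, 9.19 and 9.46 and fell by 1.33 (SE 0.12). The groups did not overlap in either. XPA, which verifies the damage, fell by 0.47 (SE 0.14). Of 13 translesion synthesis genes, which copy past lesions, 3 rose and 1 fell. POLQ, the polymerase of end joining by short homologies, rose by 2.12 (SE 0.14), the ligase gene RAD18, which licenses translesion polymerases at PCNA, by 1.96 (SE 0.28), and POLI fell by 1.00 (SE 0.29).

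Early response factors were prominent among the rises. In the AP-1 list 8 of 13 rose and 1 fell, with a median of 0.68 and 0.77, 0.62 and 0.59 in the pairs. FOSL1, a FOS relative that lasts longer than FOS itself, read 7.16, 6.20 and 7.84 with Aa and 5.24, 3.87 and 6.41 in controls (1.89, SE 0.67). Its second Aa array lay below the third control, so the groups overlapped, while each pair of the same number went up. FOS rose by 1.40 (SE 0.30), JUN by 1.08 (SE 0.16), FOSL2 by 0.91 (SE 0.14), MAFF by 0.68 (SE 0.19) and JUNB by 0.65 (SE 0.21). ATF2 fell by 0.49 (SE 0.17) and JUND stayed at -0.10. Among EGR, KLF and IER genes 12 of 27 rose and 4 fell (median 0.40). KLF4 rose by 1.46 (SE 0.26), IER5 by 1.61 (SE 0.16), KLF6 by 0.91 (SE 0.10) and the TGF-beta inducible gene KLF10 by 0.92 (SE 0.19). EGR1, which growth factors induce within minutes to hours, went the other way (-0.84, SE 0.25), as did KLF12 (-2.23, SE 0.51), a gene of 620 kb. The AP-1 letters TGACTCA or TGAGTCA were in 0 of 33 promoters of these 2 lists and in 2.29% of all.

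The MYC network was split, with 3 of 9 up and 3 down. MYC read 11.71, 11.65 and 11.68 with Aa and 12.88, 12.54 and 12.58 in controls and fell by 0.99 (SE 0.14), while MXD1 and MXD3, antagonists that compete for its partner MAX, rose by 1.07 (SE 0.20) and 0.48 (SE 0.17). MXI1, another antagonist, fell by 0.91 (SE 0.16). Feedback genes of the ERK pathway had 5 of 20 up and 1 down (6 and 4 with the replicate block). The phosphatase genes DUSP10 (1.05, SE 0.36), DUSP14 (0.71, SE 0.15) and DUSP1 (0.59, SE 0.17) rose, but DUSP6, the phosphatase most specific to ERK, was at -0.11 (SE 0.22) and did not pass. SPRED1 fell by 0.87 (SE 0.16). Of 10 EGF receptor genes and ligands 2 rose and 3 fell (4 and 3 with the replicate block). With HBEGF, TGFA rose (0.51, SE 0.14), while the receptor gene EGFR read 11.01, 11.48 and 11.36 with Aa and 11.77, 11.85 and 11.75 in controls and fell by 0.51 (SE 0.13). NRG1, a ligand gene of 1135 kb, fell by 2.06 (SE 0.47).

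NF-kB genes rose in 9 of 20 cases and fell in 1 (median 0.49, pairs 0.43, 0.36 and 0.64). TNFAIP3, a deubiquitinase gene that NF-kB induces and that shuts it off, rose by 1.57 (SE 0.30), the subunit genes RELB and REL by 1.52 (SE 0.39) and 1.24 (SE 0.13), and the inhibitor gene NFKBIA read 12.12, 11.62 and 11.98 with Aa and 10.94, 10.76 and 10.99 in controls (1.01, SE 0.14). MAP3K14, the kinase of the alternative pathway, rose by 1.12 (SE 0.24). Of 16 cytokine genes 2 rose and 1 fell (5 and 5 with the replicate block). TNFAIP6, a hyaluronan-binding secreted protein gene, read 6.57, 6.45 and 5.91 with Aa and 2.80, 2.77 and 3.03 in controls, but the controls at 24 h had a mean of 6.22, so the controls themselves were lower at 48 h, and the difference was 3.45 (SE 0.34). LIF rose by 1.31 (SE 0.19) and IL15 fell by 0.96 (SE 0.22). The chemokine genes CXCL8 and CCL2 were at 0.01 (SE 0.12) and -1.43 (SE 0.63), and neither passed. In 7 of 23 alternative fits CCL2 passed as a fall. The block added CCL2 to the calls.

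Interferon-stimulated genes were divided, with 8 of 28 up and 4 down (10 and 8 with the replicate block). IRF1 read 8.31, 7.69 and 8.18 with Aa and 6.39, 6.08 and 6.18 in controls (1.85, SE 0.27), and OAS3 and the peptide transporter gene TAP1 rose by 1.45 (SE 0.17) and 1.06 (SE 0.13). IFI35 read 4.90, 5.35 and 5.93 with Aa and 8.08 ± 0.08 (SD) in controls, with the groups well separated, and fell by 2.69 (SE 0.26). IFIH1, a sensor of double-stranded RNA, fell by 0.70 (SE 0.21). In the TGF-beta and BMP list 3 of 26 rose and 5 fell (5 and 10 with the replicate block). SMAD3, a signal carrier of TGF-beta, rose by 1.98 (SE 0.31) while SMAD2, which has the same role, fell by 0.52 (SE 0.12), and ID2, an inhibitor of differentiation factors, rose by 0.98 (SE 0.17). The receptor genes TGFBR2 and ACVR1 fell by 0.36 (SE 0.09) and 0.65 (SE 0.16). YAP and TEAD genes had 2 up and 3 down of 22 (3 and 7 with the replicate block), with their common readouts CCN1 and CCN2 at -0.86 (SE 0.32) and 0.02 (SE 0.21), and Wnt and Notch genes 2 up and 4 down of 21 (4 and 7 with the replicate block). NOTCH3 rose by 1.30 (SE 0.35) and TCF7L2 fell by 0.73 (SE 0.16). Of the genes named here that missed the threshold, CCN1 passed with the block, as a fall.

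Basement membrane and adhesion genes fell more often than they rose. In the list of collagens, laminins and fibronectin 2 of 22 rose and 9 fell (4 and 12 with the replicate block), with a median of -0.28 and -0.37, -0.28 and -0.20 in the pairs. COL4A1, a main chain of basement membrane collagen, read 12.12, 12.02 and 12.07 with Aa and 12.79, 12.50 and 12.59 in controls (-0.55, SE 0.13). COL4A5 fell by 2.28 (SE 0.38), the linker genes NID1 and NID2 by 0.70 (SE 0.22) and 1.29 (SE 0.18), and COL18A1 by 1.12 (SE 0.28). Fibronectin, FN1, was at -0.18 (SE 0.08) and did not pass, but did with the replicate block. COL7A1 and LAMB3, genes of the anchoring structures of epithelia, rose by 0.71 (SE 0.20) and 0.57 (SE 0.18). None of 12 integrins rose and 3 fell (2 and 6 with the replicate block), ITGA2 by 0.87 (SE 0.27). Of all genes tested 17.8% rose and 20.1% fell (26.7% and 28.1% with the replicate block). Without the block the share of integrins that fell was thus near that of all genes, and with the block it was above it. The list of collagens, laminins and fibronectin had a larger share of falls than all genes in both fits. Heparan sulphate genes were split at 5 up and 5 down of 15. GPC6 read 3.12, 6.39 and 4.15 with Aa and 9.49, 9.74 and 9.00 in controls (-4.85, SE 0.62) and the chain-building enzyme gene EXT1 fell by 1.49 (SE 0.17), while SDC3 and SDC4 rose by 0.79 (SE 0.28) and 0.68 (SE 0.10). GPC6 spans 1191 kb, and the part of gene length in the falls of these lists was not tested. Proteases of the matrix and their inhibitors had 3 of 15 up and 2 down (6 and 3 with the replicate block), among them the collagenase gene MMP1 (1.61, SE 0.26) and the aggrecanase gene ADAMTS5 (-2.10, SE 0.71).

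Of 29 cadherin and junction genes 2 rose and 8 fell (3 and 14 with the replicate block), median -0.23. That is 34.5% called against 37.8% of all genes. CDH6, a cadherin of the developing and injured tubule, read 10.86, 11.57 and 10.58 with Aa and 12.44, 12.69 and 12.33 in controls (-1.48, SE 0.24), but its probe sets that are not shared gave -0.14, which did not pass (adjusted p = 0.758). GJA1, the gap junction gene of connexin 43, fell by 1.59 (SE 0.21), the polarity gene PARD3 by 1.19 (SE 0.23), the desmosomal gene PKP2 by 1.11 (SE 0.29) and N-cadherin, CDH2, by 0.66 (SE 0.20). E-cadherin, CDH1, read -0.21 (SE 0.27) and did not pass, and CLDN4 rose by 0.51 (SE 0.16). Of 8 keratin and vimentin genes KRT80 rose by 1.43 (SE 0.24) and KRT20 fell, and of 10 epithelial markers CLDN4 and the transcription factor gene ELF3 (1.04, SE 0.18) rose and 0 fell (4 and 1 with the replicate block). In the cytoskeleton tubulins made up most of the rises, with 8 of 33 genes up and 3 down (13 and 6 with the replicate block). TUBB2A read 12.56, 12.44 and 12.58 with Aa and 10.94, 11.03 and 11.80 in controls (1.27, SE 0.23), TUBB4B rose by 1.07 (SE 0.20) and TUBB3 and TUBB6 each by 0.93. DIAPH2, a formin gene of 920 kb, fell by 4.09 (SE 1.07), adjusted p = 0.0127, and ACTB was at -0.09.

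In transcription, the largest subunit of RNA polymerase II, POLR2A, read 8.56, 8.25 and 8.21 with Aa and 7.00, 7.00 and 6.99 in controls and rose by 1.34 (SE 0.16). Its list had 3 of 25 genes up and 5 down (7 and 7 with the replicate block), POLR2L at -1.77 (SE 0.25) and POLR3B at -1.89 (SE 0.29). Elongation genes had 7 of 36 up and 5 down, among them the cyclin gene CCNT1 of the kinase that releases paused polymerase (1.08, SE 0.12), its inhibitor HEXIM1 (0.85, SE 0.12), BRD2 (1.44, SE 0.19) and SUPT6H (0.89, SE 0.20). These 4 rose together, and the kinase gene CDK9 itself read 0.20 (SE 0.48). SR proteins and hnRNPs, which steer splicing, had 11 of 37 up and 1 down (16 and 5 with the replicate block). All 4 CLK kinases of SR proteins rose, CLK1 from 9.38, 9.37 and 8.18 to 10.22, 10.01 and 9.61 (0.97, SE 0.33), CLK2 by 0.67, CLK3 by 1.23 and CLK4 by 1.01, whereas SRPK2 fell by 0.77 (SE 0.18).

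Chromatin enzymes moved both ways, with 10 of 37 histone methylation genes up and 6 down (14 and 10 with the replicate block) and 6 of 26 acetylation genes up and 5 down (9 and 8 with the replicate block). KMT2A, a methyltransferase of active promoters, rose by 1.26 (SE 0.15) and SUV39H1, of silent chromatin, by 1.18 (SE 0.22). KMT2C fell by 0.95 (SE 0.25) and the acetyltransferase gene CREBBP by 0.53 (SE 0.15). These counts, at 43.2% and 42.3% called, are near the 37.8% of all genes.

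Gene length went with the direction of change. In the annotation named above, genes were put in classes by their span from start to end, introns included. Of 318 tested genes that span 300 to 1000 kb, 215 fell (67.6%) and 6 rose, with a median change of -1.03, and of 13 beyond 1000 kb, 10 fell and 1 rose, with a median of -2.06. Genes of 100 to 300 kb had a median of -0.26 and 33.8% fell, against 12.5% of genes of 10 to 30 kb, where 23.6% rose. Genes under 10 kb had a median of 0.000 and 20.7% fell. In each of the 3 pairs the medians of the classes over 100 kb were ordered in the same way, with -0.31, -0.18 and -0.28 for 100 to 300 kb, -1.24, -0.72 and -1.13 for 300 to 1000 kb and -2.71, -1.32 and -2.27 beyond. No test was made between classes.

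**Figure D3:**
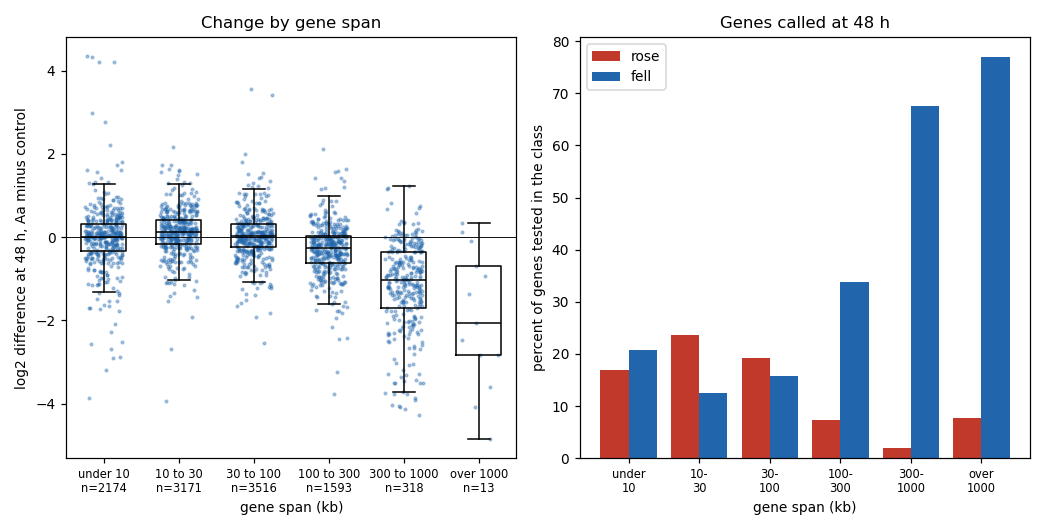
Left, log2 difference at 48 h, Aa minus control, by class of gene span, as boxes (median and quartiles, whiskers to 1.5 times the interquartile range) with points for a fixed draw of the genes of each class. Right, percent of the tested genes of each class that rose or fell. The share of falls goes from 12.5% at 10 to 30 kb to 67.6% at 300 to 1000 kb.

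Long genes had medians below 0 at every level of expression, and the size was smaller at higher levels. The level was the mean over all arrays, Aa included, so a fall with Aa itself moved a gene to a lower level. The smaller size at higher levels can come in part from this sorting and does not show an effect of level. Among genes over 300 kb the median was -1.45 in the lowest quartile of mean level, -1.16 in the next, then -0.79, and -0.75 in the highest, with 57.1% to 74.0% of genes down. Genes under 30 kb of the same quartiles had medians from 0.03 to 0.13. By quartile of the share of C and G in the promoter, which 82.7% of the genes tested had, the long genes had medians from -1.19 to -0.96. From 24 h to 48 h the genes over 300 kb changed by a median of 0.12 in controls and of -0.32 in the Aa arrays, and their difference from controls went from -0.54 to -1.05.

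The 13 genes beyond 1000 kb can be named in full. GPC6 was given above. LRMDA read 3.70, 6.20 and 3.13 with Aa and 8.85, 8.61 and 7.78 in controls (-4.07, SE 0.71), GALNT13, a gene of mucin-type glycosylation, 3.25, 5.01 and 4.98 and 7.99, 7.91 and 8.14 (-3.61, SE 0.37), and GPHN, the gene of the synaptic scaffold gephyrin, 6.79, 7.96 and 5.18 and 10.01, 9.65 and 8.79 (-2.84, SE 0.61). ROBO1, the receptor of the guidance cue SLIT, read 5.94, 7.07 and 4.84 and 9.07, 8.76 and 8.49 (-2.82, SE 0.50). The second Aa array was the highest Aa array in all 5 of these genes, and their groups were separate. NRXN3, NRG1, WWOX, SPAG16 and ZFHX3 fell by 2.47, 2.06, 1.37, 0.94 and 0.70. WWOX is an oxidoreductase gene that lies over a common fragile site. KAZN rose by 0.34 (SE 0.11), and RANBP2, at 0.11, did not pass. The entry IGH, at -0.10, is the immunoglobulin heavy chain locus and not a single gene.

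Mitochondrial genes changed in part, with no common direction. Of 67 oxidative phosphorylation subunits 7 rose and 12 fell (12 and 16 with the replicate block), median -0.03, and of 75 mitochondrial ribosomal proteins 10 rose and 17 fell (18 and 23 with the replicate block), median -0.02. Both shares called, 28.4% and 36.0%, lay below that of all genes. The complex I subunit genes NDUFA3 and NDUFS4 fell by 1.30 (SE 0.10) and 0.93 (SE 0.19), and MRPL24 by 1.18 (SE 0.24). In the TCA cycle 3 of 25 rose and 5 fell (6 and 7 with the replicate block). IDH3G, a regulatory subunit of the NAD-linked isocitrate dehydrogenase, read 10.36, 10.67 and 10.37 with Aa and 11.69, 11.42 and 11.67 in controls (-1.13, SE 0.12), whereas its catalytic partner IDH3A rose by 0.43 (SE 0.13). PDK1, which switches off pyruvate entry, fell by 1.04 (SE 0.13).

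Glycolysis genes were near controls in most steps, 2 up and 4 down of 21. HK2 fell by 0.65 (SE 0.20) and PFKM by 0.70 (SE 0.12), the regulatory enzyme genes PFKFB2 and PFKFB4 rose by 1.19 (SE 0.18) and 1.06 (SE 0.25), and LDHA, ALDOA and PKM lay from -0.04 to 0.08. Cholesterol genes fell in 10 of 25 cases and rose in 1, with a median of -0.27 and -0.22, -0.12 and -0.24 in the pairs. HMGCS1, which makes the precursor of mevalonate, read 10.98, 11.52 and 11.21 with Aa and 11.76, 11.80 and 12.14 in controls (-0.67, SE 0.22). INSIG1, which senses sterols, fell by 1.01 (SE 0.19), the regulator gene SREBF1 by 0.67 (SE 0.21) and TM7SF2 by 2.12 (SE 0.23), while the sterol exporter gene ABCA1 rose by 0.57 (SE 0.11). At 24 h, 10 of these genes fell as well, with a median of -0.48. Fatty acid synthesis had 1 of 16 up and 4 down, with the elongase gene ELOVL6 at -1.61 (SE 0.17) and SCD at -0.44 (SE 0.09). The pentose phosphate and one-carbon list had 1 of 25 up and 4 down (5 and 8 with the replicate block), with MTHFD2, of mitochondrial folate metabolism, at 0.36 (SE 0.11).

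Lipid use was led by ANGPTL4, an inhibitor of lipoprotein lipase and a target of PPAR receptors, which read 7.43, 6.40 and 8.31 with Aa and 4.39, 4.38 and 4.37 in controls (3.00, SE 0.41). The lipid droplet gene PLIN2 rose by 1.18 (SE 0.15), PEX6 by 2.10 (SE 0.47), and the coactivator gene PPARGC1A fell by 1.25 (SE 0.29). The list of fatty acid oxidation and peroxisome genes had 5 of 37 up and 6 down, 29.7% called. Metallothioneins and zinc transporters had 3 of 22 up and 10 down (6 and 11 with the replicate block). MT2A, which binds zinc and cadmium, read 14.02 ± 0.03 (SD) with Aa and 14.41 ± 0.18 in controls, with no overlap (-0.39, SE 0.10), and MT1E, MT1F, MT1G, MT1H and MT1X fell by 0.29 to 0.48. Metallothioneins are close copies, and their probe sets may read several. SLC39A11, a zinc transporter gene, fell by 3.07 (SE 0.50).

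Stress programmes did not move as blocks. The ATF4 list had 6 of 29 up and 8 down. STC2 (1.74, SE 0.25), the phosphatase subunit gene PPP1R15A (1.52, SE 0.26) and ATF5 (1.21, SE 0.33) rose, while SLC7A11, the cystine importer, read 4.11, 6.45 and 4.74 with Aa and 7.52, 8.66 and 7.18 in controls and fell by 2.69 (SE 0.52). ASNS and DDIT4 fell by 0.45 (SE 0.14) and 1.05 (SE 0.20). Among 18 aminoacyl-tRNA synthetases 1 rose and 3 fell (5 and 5 with the replicate block). The unfolded protein response had 3 of 31 up and 5 down (5 and 10 with the replicate block). The chaperone gene HSPA5, at -0.40 (SE 0.17), did not pass, but did so as a fall with the block. Averaged over its probe sets HSPA5 instead passed as a rise (0.44, adjusted p = 0.0337 in limma). HERPUD1 was at -0.63 (SE 0.11). Heat shock genes had 6 of 25 up and 2 down (11 and 2 with the replicate block), DNAJB1 at 0.61 (SE 0.19) and BAG3 at 0.53 (SE 0.11). In the NRF2 list 2 of 33 rose and 9 fell, with HMOX1, which breaks down heme, at 0.91 (SE 0.24), NQO1 at -0.50 (SE 0.17), ME1 at -0.83 (SE 0.15) and the glutathione peroxidase gene GPX4 at -0.41 (SE 0.09).

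Detoxification genes had 6 of 41 up and 10 down (12 and 14 with the replicate block). CYP1B1, a target of the aryl hydrocarbon receptor, rose by 0.61 (SE 0.21), but TIPARP, another target, read 10.81, 11.57 and 10.96 with Aa and 12.36, 12.47 and 12.39 in controls and fell by 1.30 (SE 0.20). POR, which feeds electrons to cytochromes P450, rose by 0.87 (SE 0.31), and ALDH8A1 by 4.29 (SE 0.50) from a control mean of 3.51. In the hypoxia list 4 of 27 rose and 6 fell (6 and 12 with the replicate block). VEGFA rose by 0.90 (SE 0.12) with ADM and ANGPTL4, while P4HA1, BNIP3 and HIF1A fell by 0.76 (SE 0.14), 0.38 (SE 0.09) and 0.26 (SE 0.08). Proteasome genes had 4 of 38 up and 3 down (13 and 3 with the replicate block), all within -0.46 and 0.69.

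Lysosome and autophagy genes were split, 10 up and 12 down of 48 (16 and 14 with the replicate block). The conjugation genes ATG7 and ATG10, which span 304 and 284 kb, fell by 1.91 (SE 0.38) and 1.89 (SE 0.45), and the protease gene CTSH by 1.59 (SE 0.17). Without shared probe sets ATG7 was at -0.06 and did not pass (adjusted p = 0.62). MCOLN1, a lysosomal calcium channel gene, rose by 1.21 (SE 0.17) and ATG16L1 by 1.04 (SE 0.10). Death regulators had 5 of 30 up and 6 down (9 and 7 with the replicate block). The survival gene BCL2 read 6.27, 7.21 and 5.74 with Aa and 8.12, 8.41 and 6.97 in controls, where the third array was low and overlapped with Aa (-1.43, SE 0.46). BIK rose by 0.95 (SE 0.11), and CFLAR, which blocks death receptor signals, fell by 0.75 (SE 0.17), although the average of its probe sets read 0.19 higher with Aa. MCL1 (-0.22, SE 0.14) and BAX (0.31, SE 0.12) did not pass. In 2 of 24 alternative fits MCL1 passed as a fall, and its change ran from -1.47 to -0.10 over them. With the block, BAX passed as well.

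Kidney genes changed in single cases. Of 26 injury markers 2 rose and 3 fell (6 and 8 with the replicate block). HAVCR1, the gene of KIM-1, which injured proximal tubules induce, read 11.07, 11.53 and 11.38 with Aa and 11.41, 11.55 and 11.61 in controls and did not pass (-0.20, SE 0.14). The rises were HBEGF and CD44 (0.87, SE 0.21), and VCAM1 fell by 1.40 (SE 0.25) with KRT20 and CD24. Of 8 proximal tubule markers tested 0 rose and 4 fell (2 and 5 with the replicate block), SLC3A1, a subunit of the cystine transporter, at -1.87 (SE 0.48), and PAX8, a transcription factor gene of kidney development, at -0.45 (SE 0.11). Summed over the 27 markers with a probe set, the level was 13.5 to 14.1 in log2 with Aa and 14.1 to 14.6 in controls. Fewer cells with these transcripts and less of them per cell cannot be told apart in such samples. WNK4, a kinase of salt handling in the distal nephron, read 7.35, 6.49 and 6.42 with Aa and 2.94, 2.24 and 2.28 in controls (4.27, SE 0.59). Its list of salt transport and kinase genes had 2 of 17 up and 3 down (2 and 5 with the replicate block). The mineralocorticoid receptor gene NR3C2, of 367 kb, fell by 2.15 (SE 0.56) and its target SGK1 by 1.01 (SE 0.18).

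**Figure D4:**
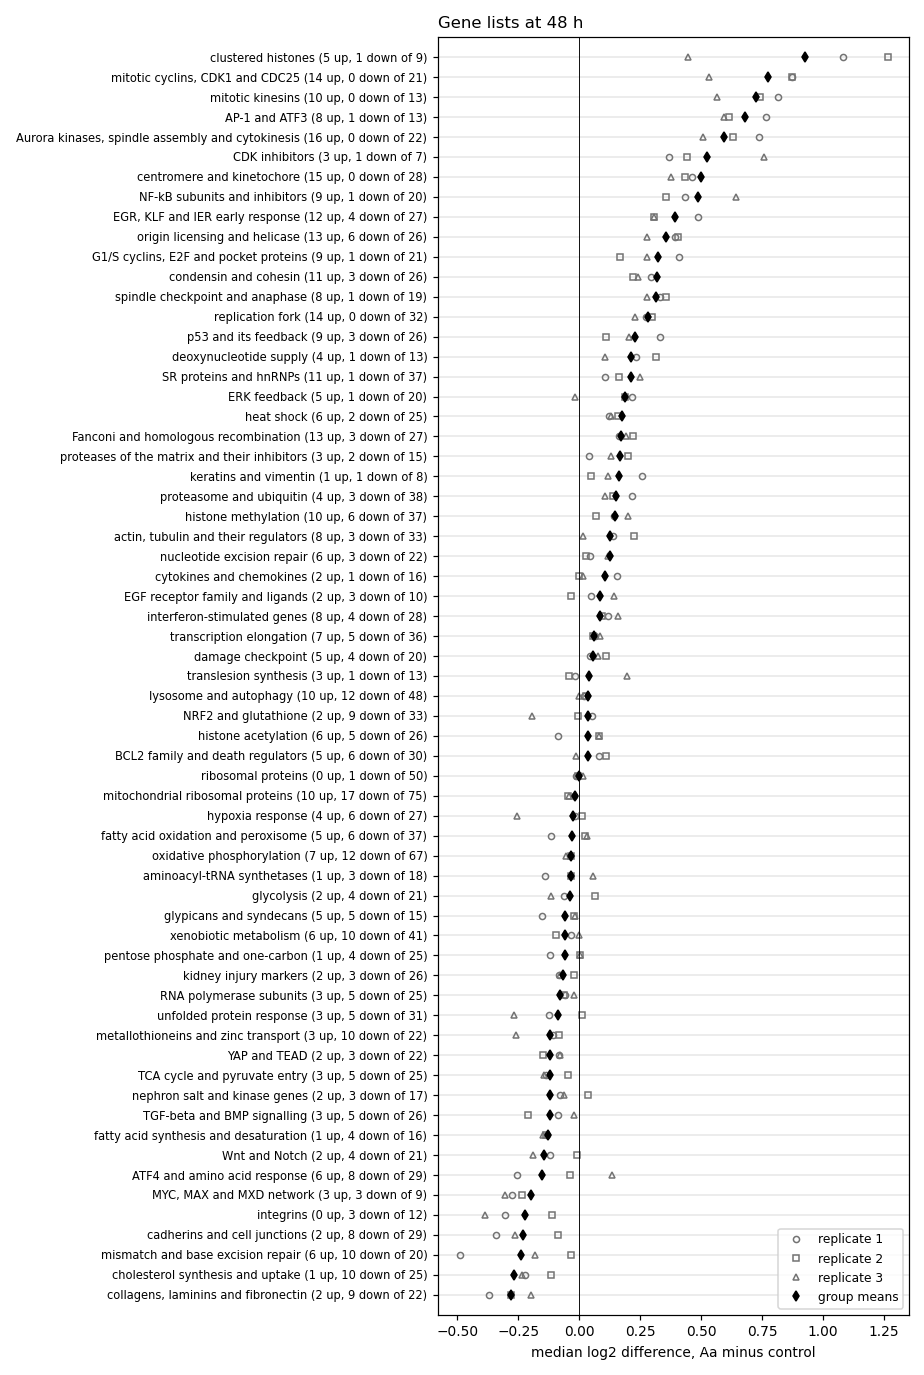
Median over the tested genes of each list of the log2 difference at 48 h, Aa minus control, as black diamonds from the group means and open symbols for each pair of arrays with the same number, with the genes up and down of those tested in brackets. Clustered histones, mitotic cyclins, mitotic kinesins, AP-1 genes and the Aurora kinase list are at the top with all 3 pairs above 0.4, ribosomal proteins sit at 0 and the matrix, cholesterol, and mismatch and base excision repair lists lie at the bottom.

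Families of genes that share a root in their symbols were compared without regard to function. The highest medians over families of at least 15 genes were those of DDX helicases (0.28, 13 of 31 up and 3 down), DUSP phosphatases (0.27, 4 of 16 up and 1 down), ZNF zinc finger genes (0.24, 113 of 341 up and 25 down) and CEP centrosome genes (0.22, 11 of 34 up and 3 down). DDX5 and DDX52 rose by 2.20 (SE 0.22) and 1.89 (SE 0.21), DUSP3 and DUSP14 by 0.60 (SE 0.11) and 0.71 (SE 0.15), ZNF137P and ZNF211 by 4.33 (SE 0.29) and 1.32 (SE 0.11), and CEP78 and CEP295 by 2.13 (SE 0.22) and 1.06 (SE 0.17). The lowest were those of IFT genes of ciliary transport (-0.39, 0 of 16 up and 6 down), NUDT hydrolases (-0.35, 2 of 16 up and 4 down), METTL methyltransferases (-0.34, 4 of 19 up and 8 down) and COL collagens (-0.29, 1 of 16 up and 6 down). IFT22 and IFT70B were at -1.09 (SE 0.12) and -2.31 (SE 0.36), NUDT6 and NUDT12 at -0.98 (SE 0.17) and -0.35 (SE 0.11), METTL23 and METTL5 at -2.72 and -0.74 (SE 0.10), and COL8A1 and COL4A5 at -0.89 (SE 0.12) and -2.28. All 8 passed, but the mean of the probe sets of IFT22 was at -0.11 (adjusted p = 0.475) and METTL5 without shared probe sets at -0.13 (adjusted p = 0.542).

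The difference at 48 h was set against that at 24 h, which rests on its own controls. At 24 h 2494 genes passed (23.1%), of which 1108 rose (10.3%) and 1386 fell (12.8%). Of the 1919 genes that rose at 48 h, 825 had risen at 24 h (43.0%), 1077 had not passed and 17 had fallen. Of the 2164 that fell at 48 h, 993 had fallen (45.9%), 1170 had not passed and 1 had risen. Seen from 24 h, 72.9% of the changed genes changed the same way at 48 h. The difference between the times itself passed in 89 genes (0.825%), 80 of them higher at 48 h (0.741% of those tested) and 9 lower (0.0834%). That count rests on single arrays: without replicate 1 in all groups it was 0, without replicate 2 it was 6 and without replicate 3 it was 1. With 1 array at 48 h left out it ran from 0 to 255. With the replicate number as a block it was 1183, 678 higher (6.28%) and 505 lower (4.68%).

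Mitotic genes made up much of it. Of the 102 genes in the 5 lists 29 had a higher effect at 48 h than at 24 h (70 with the replicate block) and 0 a lower. At 24 h 27 of them fell and 5 rose, with a median of -0.18. KIF14 changed by -0.79 at 24 h and by 0.54 at 48 h, a difference of 1.32 (adjusted p = 0.0275). TOP2A went from 0.07 to 1.09 (difference 1.02, adjusted p = 0.0179). The largest differences upward were those of TNFAIP6 (3.81), CDKN2B (2.96), ENC1 (2.61), SERTAD1 (2.08) and ID2 (1.76). Control means of these genes were 6.22, 4.50, 7.17, 6.71 and 9.57 at 24 h and 2.86, 3.70, 6.57, 6.29 and 10.05 at 48 h. The controls thus went down in 4 of the 5. The largest differences downward were those of EDIL3 (-1.70), SLC60A1 (-1.24), TMEM120A (-1.20), WASF3 (-0.94) and ZSCAN31 (-0.94), the last of them at -0.32 (SE 0.13) at 48 h, past the threshold there only with the block.

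**Figure D5:**
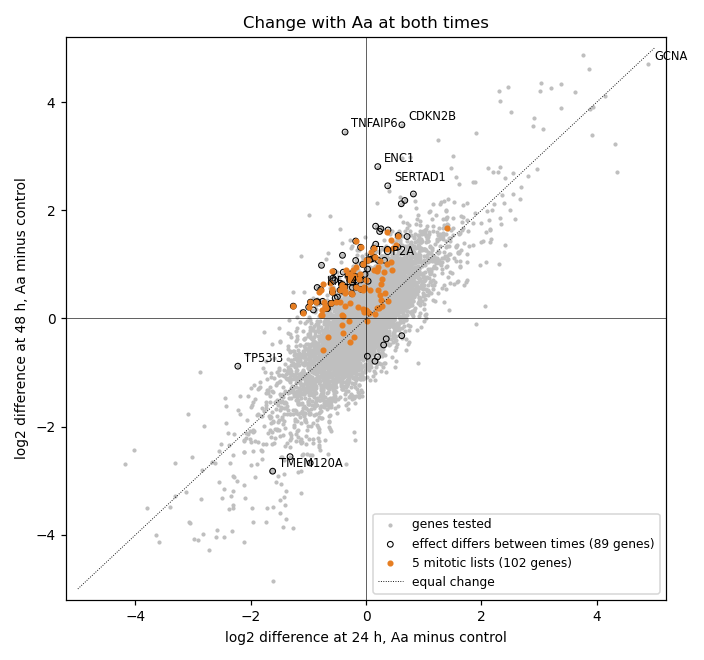
Each point is a gene, with its log2 difference at 24 h on the horizontal axis and at 48 h on the vertical axis, both Aa minus the controls of that time. Open circles mark the 89 genes whose effect differed between the times and orange points the 102 genes of the 5 mitotic lists, most of which lie above the dotted line of equal change.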

How the data were processed

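The samples were 12 Affymetrix arrays of total RNA from HK-2 cells, of which the 6 at 48 h enter the comparison. Per the submitters' processing notes the authors made the deposited log2 values with GCRMA, whose version is not given in the sources used here. GCRMA corrects background from probe sequence and equalises the distributions of the arrays, so an overall change in RNA per cell would not be seen. The number of arrays limits the precision.

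Of 54675 probe sets 41091 were paired with 1 gene symbol in the platform annotation, 1801 with several, 11721 had no entry and 62 were controls. Symbols were updated by gene ID to RefSeq's annotation of GRCh38.p14, which also gave spans and promoters. The brightest probe set stood for a gene, and genes with a mean of at least 4 were tested.

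With limma 3.58.1 (R 4.3.3) 1 model with the 4 group means was fitted to the 12 arrays (lmFit and eBayes, Benjamini-Hochberg over all genes tested, threshold 0.05), with 8 residual and 2.76 prior degrees of freedom. On simulated data 37.3% of changes of 1.5-fold, 77.6% of 2-fold and 97% of 4-fold were called, and 9 of 150 calls were false. The simulation had independent noise and few changed genes. In the real arrays many genes changed and deviations were shared, so these shares may not hold there. Whether replicate numbers pair the arrays was read from the data: deviations from the group means correlated at 0.35 to 0.62 in the 18 same-number pairs and at -0.49 to -0.01 in the 36 others. The labels do not say what the numbers share.

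The comparison, the gene lists and the tests were chosen with earlier results of these data known. Named are the 12 largest rises and falls with both group means of at least 5 and groups that do not overlap, the 4 largest without the minimum, the 5 with the smallest p each way, the 10 most abundant genes, members of each list, the 5 largest differences between times each way, 2 genes of each extreme family and every gene over 1000 kb. From the lists 6 members with the smallest p were taken as the base, and others, chosen after their values were seen, were added for their role. Alternatives covered the design, filter, probe sets, scaling, variance model, threshold and left-out arrays. 1 gene list is not reported here.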

Additional observations from a re-analysis of the deposited data

Results flagged for a closer look

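For 39 genes named in the text the effect of Aa differed between 24 h and 48 h in limma's test of that difference (adjusted p under 0.05 over all genes). The values are the change at 48 h minus the change at 24 h, in log2.

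Most are mitotic genes, which in part follows from naming members of each mitotic list, and all of these were higher at 48 h. Of the 89 such genes among all those tested, 29 are in the 5 mitotic lists. Among kinases, cyclins and motors the differences were 1.17 for CCNB1, 1.21 for CCNB2, 1.07 for AURKA, 1.61 for NEK2, 0.85 for BUB1B, 1.32 for KIF14, 1.49 for KIF20A, 1.10 for KIF23, 1.05 for KIF2C and 1.27 for CENPE. At the kinetochore they were 1.04 for CENPA, 1.16 for HJURP, 0.98 for KNL1, 0.96 for NDC80, 1.05 for NUF2 and 0.97 for SKA3. For spindle and chromosome genes they were 1.41 for ESPL1, 1.13 for HMMR, 1.00 for PRC1, 0.98 for SPAG5, 1.02 for TPX2, 1.08 for NCAPD2 and 1.02 for TOP2A. Some of them missed the threshold at 48 h itself: CCNB1 changed by -0.86 at 24 h and 0.31 at 48 h, and KIF20A by -1.26 and 0.23. Their control means were 12.70 and 10.93 at 24 h and 12.03 and 10.48 at 48 h.

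Outside mitosis the effect was higher at 48 h for TNFAIP6 (3.81), CDKN2B (2.96), ENC1 (2.61), SERTAD1 (2.08), ID2 (1.76), TSPYL2 (1.48), IER5 (1.37), TP53I3 (1.34) and ZNF211 (0.77). TP53I3 changed by -2.23 at 24 h and -0.88 at 48 h. It was lower at 48 h for EDIL3 (-1.70), SLC60A1 (-1.24), TMEM120A (-1.20), WASF3 (-0.94), ZSCAN31 (-0.94), NPAT (-0.73) and ZFHX3 (-0.72). The count of such genes rests on single arrays, as given in the report.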

How the results depend on the processing

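With an adjusted p under 0.01, 1043 genes rose and 1243 fell, and with each probe set tested on its own 3143 and 3509 did. The replicate number as a block gave 2885 rises and 0 lost calls among the 319 named genes that passed, added 10 named genes, all given in the report or markers, and changed no other call. With arrays left out and no block, rises ran from 765 to 1926 and falls from 784 to 2161, lowest without replicate 1, and with a replicate number left out and the block kept they ran from 1882 to 2528 and from 2011 to 2723. The difference between times passed in 89 genes. It passed in 57 with arrays centred on the median, 48 without shared probe sets, 1183 with the block, and 0 at an adjusted p under 0.01, where 1534 had an unadjusted p under 0.05 in limma. With the block and a replicate number left out, an alternative added after seeing the data, it passed in 0, 445 and 1 genes without replicates 1, 2 and 3. With arrays left out and no block it ran from 0 to 255, and the 3 alternatives at 0 had 808, 1213 and 1317 genes with an unadjusted p under 0.05. Averaging the probe sets of a gene turned CFLAR to 0.188, HSPA5 to 0.439, EEF1A1 to 0.428, RPS15A to 1.489 and RPS23 to 1.367, and leaving out probe sets whose names mark sharing between genes turned EEF1A1 to 2.084 and RPS15A to 3.297. The causes were not tested. Of the 319 genes, 161 were called the same way under every alternative run. Of the 51 named genes that did not pass, 15 passed with the same sign in at least 1 alternative, and 20 took the other sign in some alternative. Of those 20, EEF1A1, HSPA5 and RPS23 passed with the other sign when their probe sets were averaged. The medians of the 5 mitotic lists and of genes over 100 kb kept their sign in every alternative run, while those of several lists near 0, such as NRF2 and glutathione, did not. Low signal limits sizes: 55 risen and 84 fallen genes had a group mean under 4 at 48 h.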

Other observations

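Probe sets without a single gene name held changes too. Of 2892 such probe sets past the filter, 559 rose (19.3%) and 321 fell (11.1%), against 15.9% and 17.8% of 19623 probe sets with 1 symbol. Changes of at least 4-fold numbered 97 up and 22 down among the unnamed, and 190 up and 234 down among the named. What these probe sets measure was not analysed here.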
